A study of Mus musculus with 8 samples.

Results

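Intermediate filament and lamin genes were examined in the left ventricle of mice infused with saline or with angiotensin II (ANG II), a hormone that raises blood pressure. The group held 8 genes, taken by name from the 55679 genes of the deposited expression table: desmin (Des), vimentin (Vim), nestin (Nes), synemin (Synm), syncoilin (Sync), lamin A/C (Lmna), lamin B1 (Lmnb1) and lamin B2 (Lmnb2). All 8 were found under these names, and all 8 passed the filter on low values, set at an average of 0.1 FPKM (fragment counts scaled to transcript length and to library size). The rule used gene names and no measured value.

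Samples came from male wild-type C57BL/6J mice, whose age was not given in the sources used here. The control group (n = 4 libraries) was infused with saline for 7 days, and the ANG II group (n = 4 libraries) with ANG II at 1500 ng/kg/min for 7 days, in each case through an osmotic pump placed under the skin. Both groups carried a pump, so the saline mice are controls for the surgery and not untreated animals. The study's methods describe the libraries as biological replicates. Further libraries of the study were not analysed here.

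Intermediate filaments are flexible protein ropes that, unlike actin and microtubules, differ in composition between cell types. In heart muscle cells desmin is the main one: it ties neighbouring Z discs together and links them to the cell membrane, the mitochondria and the nucleus, while synemin and syncoilin are larger or atypical partners that bind desmin. Vimentin fills fibroblasts, endothelial cells and leukocytes, and nestin is best known from progenitor and newly formed cells. Lamins form the meshwork under the inner nuclear membrane, the A-type lamins A and C being splice products of Lmna and the B-type lamins being made by Lmnb1 and Lmnb2. Inherited variants of desmin and of lamin A/C are known causes of cardiomyopathy.

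Promoters of called members are shown because these genes moved in the same direction. Lmnb1 was called higher as well, but no window was listed for it. RefSeq windows on GRCm38.p6 ran from 250 bases before to 50 bases after a transcript start and were listed for 7 of the 8 genes. Capitals mark matches on either strand to the GC box (GGGCGG), the E-box CAGCTG or the AP-1 motif (TGACTCA or TGAGTCA). For Lmna, which has 2 listed starts, the window of the upstream start is printed, and gene-level values do not tell which start was used. The positions are chr1:75360042-75360341 (plus strand) for Des, chr2:13574061-13574360 (plus strand) for Vim, chr3:87970843-87971142 (plus strand) for Nes and chr3:88503303-88503602 (minus strand) for Lmna.
Des: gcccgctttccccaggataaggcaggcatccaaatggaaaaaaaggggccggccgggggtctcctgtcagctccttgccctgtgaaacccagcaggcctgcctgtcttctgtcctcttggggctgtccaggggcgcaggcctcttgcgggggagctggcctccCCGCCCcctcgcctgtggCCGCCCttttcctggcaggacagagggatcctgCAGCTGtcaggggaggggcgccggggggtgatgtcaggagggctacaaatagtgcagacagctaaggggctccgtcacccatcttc
Vim: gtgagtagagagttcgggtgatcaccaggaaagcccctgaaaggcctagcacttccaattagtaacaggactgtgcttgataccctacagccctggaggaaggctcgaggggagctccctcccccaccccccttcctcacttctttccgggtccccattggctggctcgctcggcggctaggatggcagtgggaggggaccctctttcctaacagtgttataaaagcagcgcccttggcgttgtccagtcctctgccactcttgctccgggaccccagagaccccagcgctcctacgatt
Nes: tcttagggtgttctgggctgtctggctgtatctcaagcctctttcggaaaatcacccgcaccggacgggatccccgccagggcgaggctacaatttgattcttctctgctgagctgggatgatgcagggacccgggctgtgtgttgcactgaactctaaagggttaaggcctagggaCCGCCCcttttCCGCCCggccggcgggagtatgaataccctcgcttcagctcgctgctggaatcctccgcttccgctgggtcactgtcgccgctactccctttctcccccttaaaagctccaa
Lmna: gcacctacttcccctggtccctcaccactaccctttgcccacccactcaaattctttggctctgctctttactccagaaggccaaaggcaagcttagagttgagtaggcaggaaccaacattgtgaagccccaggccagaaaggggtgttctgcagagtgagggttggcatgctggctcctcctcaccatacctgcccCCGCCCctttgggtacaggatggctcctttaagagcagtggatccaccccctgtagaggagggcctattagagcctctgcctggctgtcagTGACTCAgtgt

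The Des window held an E-box that begins 36 bases before the start and 2 GC boxes. The Nes window held 2 GC boxes, and the Lmna window 1 GC box and 1 AP-1 match that begins 39 bases after the start. None of the 7 motifs searched was found in the Vim window. Over all 32851 windows of 300 bases, 35.7% held a GC box, 16.3% the E-box and 5.20% the AP-1 motif. The other motifs, TEAD (GGAATG, 14.7% of windows), E2F (TTTCGCGC or TTTGGCGC, 0.813%), the CArG box (1.63%) and the MEF2 box (0.557%), were searched on both strands and not matched in any of the 9 windows of the family. A match is a run of letters and no evidence that a factor binds there.

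The libraries held 14455653 to 16564826 fragments. Mitochondrially encoded transcripts took 26.3 to 26.9% of fragments in control and 19.2 to 21.8% in ANG II, ANG II library 3 being at the upper end of its group. FPKM values are shares of a library, and the median log2 fold change over all 19364 genes tested was 0.15. The share of calls that were higher in ANG II was 90.8% as deposited, 67.5% after median-of-ratios scaling, which brings the median of all genes near 0 (0.0040), and 59.0% after quantile normalization.

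Of the 8 genes, 5 rose in ANG II and none fell. Vim, Lmnb1, Des, Lmna and Nes were called, which required a limma p-value under 0.05 once adjusted over all genes tested (Benjamini-Hochberg) together with a log2 fold change beyond 0.5 in either direction. Over all genes tested, 15.4% were called in either direction, 14.0% higher and 1.41% lower. By the adjusted p-value alone, without the fold change threshold, 6 of the 8 passed (Synm being the sixth), against 33.3% of all genes. In the same 5 genes every ANG II library was above every control library, which was the case for 28.7% of all genes tested, while 5.06% parted in the lower direction and 33.7% in either. Synm, Lmnb2 and Sync were not called. In bulk tissue, more or fewer cells of a type and more or less RNA per cell cannot be told apart. The median log2 fold change of the 8 genes was 0.61, against 0.15 for all genes. After median-of-ratios scaling 3 of the 8 were called (Vim, Lmnb1 and Des), against 8.62% of all genes called higher and 4.15% lower. With quantile normalization 4 were called (all but Nes of the 5), against 7.31% higher and 5.08% lower.

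**Figure D1:**
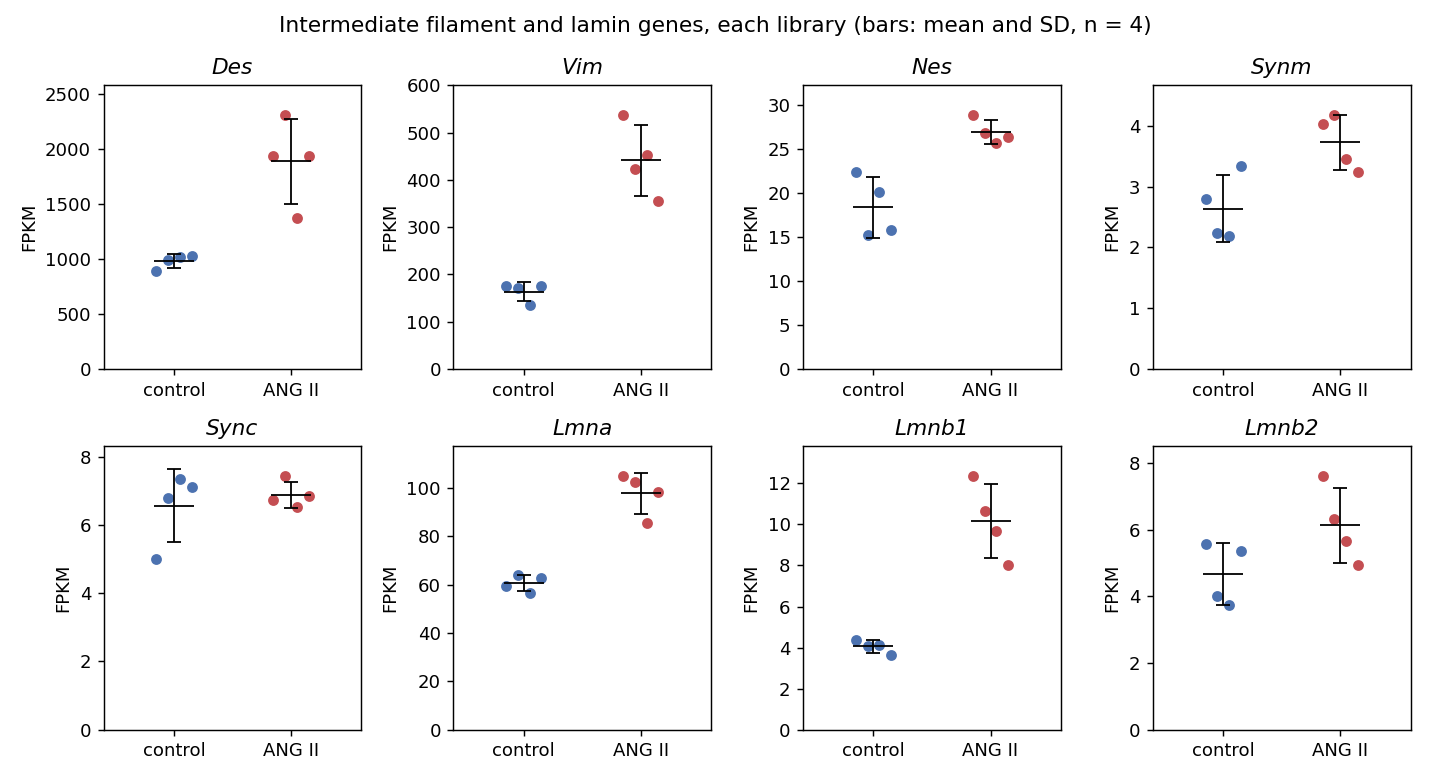
FPKM of the 8 genes in each library (points), with the mean and SD of the 4 libraries of each group (bars) and every axis starting at 0. The groups do not overlap for Des, Vim, Nes, Lmna and Lmnb1, and they overlap for Synm, Sync and Lmnb2.

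Des (ENSMUSG00000026208, chromosome 1, 75360329 to 75368579, plus strand, GRCm38) was the most abundant of the 8 genes in both groups. It was at 892, 991, 1020 and 1030 FPKM in control libraries 1 to 4. The ANG II libraries 1 to 4 held 1933, 2304, 1373 and 1932 FPKM. All ANG II libraries lay above all controls, and ANG II library 3 stood lowest of its group, with the mitochondrial share given above at 21.8%. The mean rose from 983 ± 63.1 to 1886 ± 384 FPKM (SD, n = 4 each), or 1.92-fold. The log2 fold change was 0.92 with an SE of 0.137 (Benjamini-Hochberg adjusted p = 7.62e-04, limma), and 0.69 after median-of-ratios scaling. Among all genes of the table, Des ranked 50 by mean level in control and 30 in ANG II.

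Synm (ENSMUSG00000030554, chromosome 7, 67730160 to 67759742, minus strand), which joins desmin in mixed filaments, was low. It was at 2.80, 2.23, 2.18 and 3.34 FPKM in control and 4.04, 4.17, 3.46 and 3.24 FPKM in ANG II, about 165 to 337 fragments per library. The groups overlapped, since ANG II library 4 lay under control library 4. Its log2 fold change of 0.38 (SE 0.129) passed on the adjusted p-value (0.0437, limma, Benjamini-Hochberg) but not on size, and the exact two-sided permutation p was 0.0571. The limma adjusted p was 0.0821 without the filter on low values, and it was between 0.0628 and 0.115 in 6 of the 8 fits that left out a library. After median-of-ratios scaling the fold change was 0.21 (limma adjusted p = 0.279), after quantile normalization 0.061 (0.777), and with voom on recovered fragments 0.51, where it was called.

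Sync (ENSMUSG00000001333, chromosome 4, 129287617 to 129308559, plus strand), whose protein binds desmin and the dystrophin-associated complex, was at 5.0, 6.80, 7.35 and 7.12 FPKM in control and 6.73, 7.43, 6.54 and 6.84 FPKM in ANG II. The groups overlapped throughout, and control library 1 was the lowest of the 8. The log2 fold change was 0.07 with an SE of 0.112 (Benjamini-Hochberg adjusted p = 0.67, limma), and it was -0.13 after median-of-ratios scaling, so no direction can be given. The value is uncertain, because 27.3% of its exon length is shared with Rbbp4, which runs the other way, and the sources used here do not say whether counting was by strand. The same limit holds to a lesser degree for Synm and Des, with 6.43% and 5.86% of exon length shared with genes of the other strand.

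Vim (ENSMUSG00000026728, chromosome 2, 13573927 to 13582826, plus strand) had the largest fold change of the 8 genes. Control libraries 1 to 4 were at 175, 171, 134 and 175 FPKM. In ANG II the values were 536, 422, 453 and 356 FPKM. The lowest ANG II library, number 4, was still far above the highest control. The mean went from 164 ± 19.7 to 442 ± 75.1 FPKM (SD, n = 4 each), or 2.70-fold, a log2 fold change of 1.42 with an SE of 0.126 (Benjamini-Hochberg adjusted p = 4.62e-05, limma). After median-of-ratios scaling it was 1.19. In control Vim ranked 419 among all genes by mean level and in ANG II 151.

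Nes (ENSMUSG00000004891, chromosome 3, 87971078 to 87980451, plus strand) was at 22.4, 15.2, 20.1 and 15.8 FPKM in control and 28.9, 26.8, 25.8 and 26.4 FPKM in ANG II. The control libraries spread more widely than the ANG II libraries, with SDs of 3.47 and 1.34 FPKM, and all ANG II libraries were higher. The rise was 1.47-fold, a log2 fold change of 0.54 with an SE of 0.114 (Benjamini-Hochberg adjusted p = 0.00502, limma), close to the threshold of 0.5. It was not called after median-of-ratios scaling (0.32, adjusted p = 0.0535 by limma), and without control library 2 or 4 the log2 fold change fell under the threshold (0.46 and 0.48).

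Lmna (ENSMUSG00000028063, chromosome 3, 88480147 to 88509956, minus strand) was the most abundant lamin. Its control values were 59.2, 64.1, 56.6 and 62.8 FPKM. Its ANG II values were 105, 102, 85.6 and 98.2 FPKM, again lowest in ANG II library 3 and all above control. The mean rose from 60.7 ± 3.41 to 97.8 ± 8.59 FPKM (SD, n = 4 each), or 1.61-fold, a log2 fold change of 0.68 with an SE of 0.0708 (Benjamini-Hochberg adjusted p = 1.10e-04, limma). After median-of-ratios scaling it was 0.45 with an adjusted p of 0.00122 by limma, past the p-value threshold but under the fold change threshold. The table gives 1 value for the gene, so lamin A and lamin C messages were not told apart.

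Lmnb1 (ENSMUSG00000024590, chromosome 18, 56707813 to 56753424, plus strand) was at 4.39, 4.07, 4.14 and 3.62 FPKM in control and 12.4, 10.6, 9.67 and 8.04 FPKM in ANG II. These values rested on about 97 to 120 fragments per control library and 225 to 328 per ANG II library. The rise was 2.51-fold, with no overlap, a log2 fold change of 1.13 with an SE of 0.12 (Benjamini-Hochberg adjusted p = 1.18e-04, limma) and 0.94 after median-of-ratios scaling. The control CV of 7.85% was no larger than the counting error of the library with the fewest Lmnb1 fragments (10.2%).

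Lmnb2 (ENSMUSG00000062075, chromosome 10, 80901203 to 80918245, minus strand) was at 5.59, 4.01, 3.75 and 5.37 FPKM in control and 7.61, 6.32, 5.67 and 4.95 FPKM in ANG II. ANG II library 4 lay within the control range. The log2 fold change of 0.33 (SE 0.148) did not pass (Benjamini-Hochberg adjusted p = 0.116 by limma, and exact two-sided permutation p = 0.114), and it was 0.14 after median-of-ratios scaling.

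**Figure D2:**
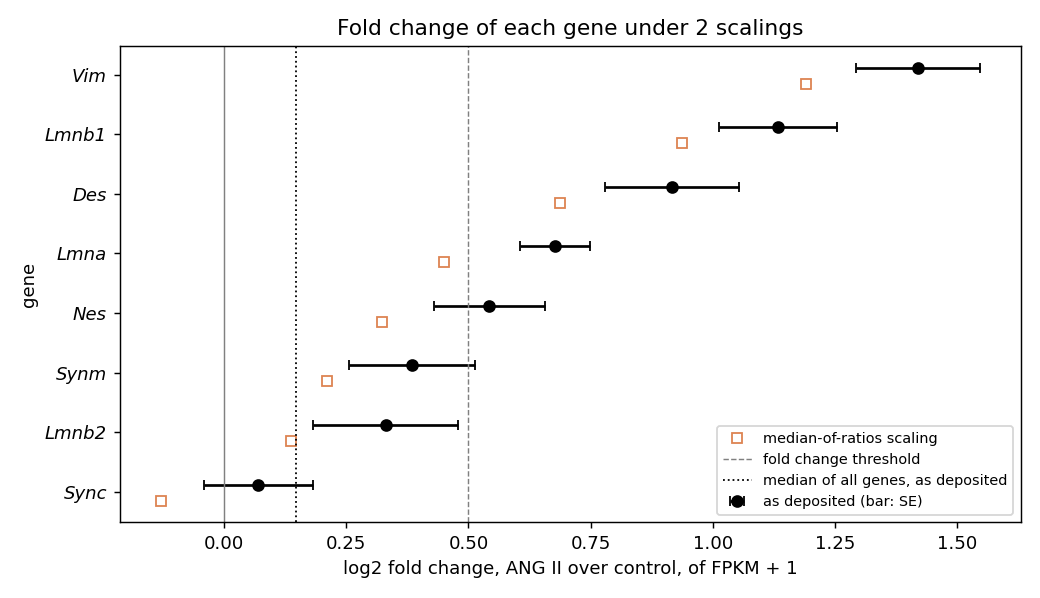
Log2 fold change of each gene, ANG II over control, with the values as deposited (black points, bars SE) and after median-of-ratios scaling (open squares), beside the fold change threshold of 0.5 and the median of all genes. Vim, Lmnb1 and Des stay above the threshold under both scalings, Lmna and Nes do so only as deposited, and Sync changes sign.

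By level per kilobase, the order in control was Des, Vim, Lmna, Nes, Sync, Lmnb2, Lmnb1 and Synm. Neighbours in this order did not overlap between libraries, apart from Sync with Lmnb2 and Lmnb2 with Lmnb1. In ANG II the order was Des, Vim, Lmna, Nes, Lmnb1, Sync, Lmnb2 and Synm, so Lmnb1 stood above Sync and Lmnb2, and only Sync and Lmnb2 overlapped. The deposited values used the mean length of all annotated transcripts of a gene, 1549 bases for Des and 1488.5 bases for Vim, short retained-intron transcripts included. Per kilobase of the longest coding transcript, the ANG II means would be 965 for Des, 299.9 for Vim, 57.0 for Lmna, 7.37 for Sync and 6.27 for Lmnb1. Sync would then stand above Lmnb1 in ANG II, so the order of these genes depends on the length used.

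Ratios within a library do not depend on how libraries are scaled to each other, and 3 were compared. The ratio of Lmnb1 to Lmnb2 was 0.785, 1.01, 1.10 and 0.675 in control and 1.62, 1.68, 1.71 and 1.63 in ANG II. All ANG II libraries were above all controls. The ANG II libraries lay closer together than counting error alone would spread them, with an SD of 0.0362 on the log2 scale against a Poisson SE of 0.12 to 0.145 for a single library, so their small spread is no measure of precision. The log2 ratio rose from -0.19 ± 0.328 to 0.73 ± 0.0362 (SD, n = 4 each), a difference of 0.92 (SE 0.165, exact two-sided permutation p = 0.0286, the smallest possible for 4 against 4). Adjusted over the 3 ratios by Benjamini-Hochberg the exact p was 0.0857, so the difference did not pass that correction.

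The ratio of Lmna to the sum of the B-type lamins was 5.94 to 7.93 in control and 5.25 to 7.56 in ANG II. The groups overlapped, with a difference of -0.20 on the log2 scale (SE 0.144, exact two-sided permutation p = 0.229, 0.229 adjusted). Vim over Des ranged from 0.132 to 0.197 in control and from 0.183 to 0.330 in ANG II. ANG II libraries 2 and 4 lay within the control range, and libraries 1 and 3 above it. The difference was 0.51 (SE 0.246, exact two-sided permutation p = 0.114, 0.171 adjusted) with SDs of 0.241 in control and 0.429 in ANG II, and it did not pass the test.

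**Figure D3:**
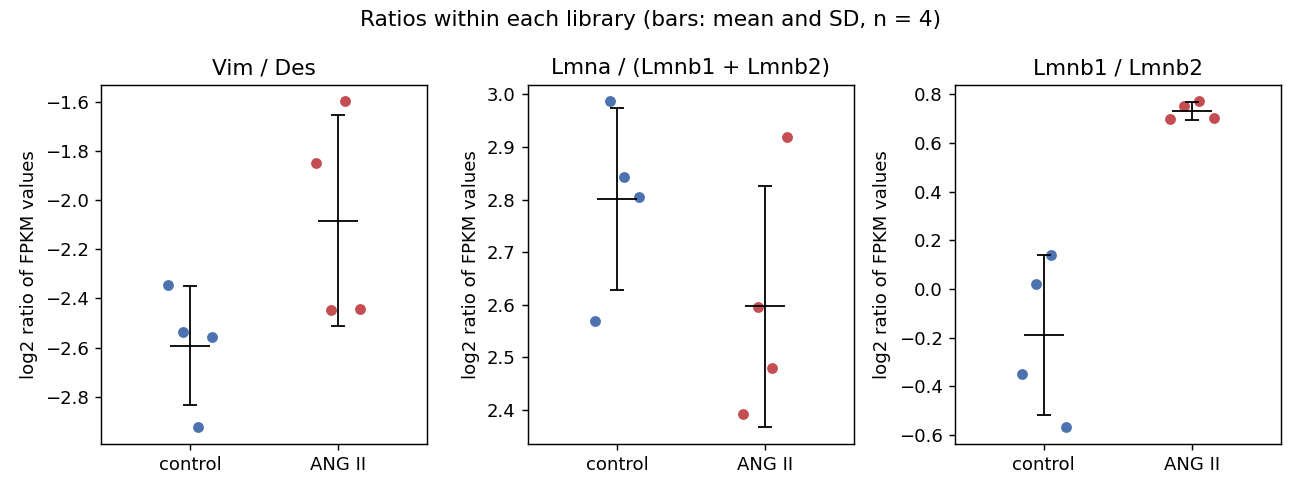
Log2 ratio of FPKM values within each library (points) with the mean and SD of 4 libraries (bars), for Vim over Des, Lmna over the sum of Lmnb1 and Lmnb2, and Lmnb1 over Lmnb2. Only Lmnb1 over Lmnb2 parts the groups, with ANG II libraries between 0.70 and 0.77.

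Marker genes of several cell types of the ventricle differed between the groups. Over all genes tested, 14.0% were called higher and 1.41% lower as deposited. The shares were 8.62% and 4.15% after median-of-ratios scaling, and 7.31% and 5.08% with quantile normalization. Cardiomyocyte genes were the most abundant, and their summed level fell from 54336 to 55718 FPKM in control to 42003 to 44076 FPKM in ANG II. Of the 9, 2 were called lower, Myh6 and Tnni3, and none was called higher. After median-of-ratios scaling 5 were called lower (Actc1, Myl2 and Pln besides), and with quantile normalization 1. The tissue label is left ventricle, whereas the extraction text of the labels mentions CRC cells, and Myh6, the main myosin of the mouse ventricle, was at 10367 FPKM in control. In the fibroblast list 7 of 9 genes were called higher (summed level 1094 to 1474 FPKM in control and 2300 to 2608 FPKM in ANG II), and in the macrophage list 8 of 8 (267 to 337 and 594 to 828 FPKM). After median-of-ratios scaling these lists held 6 higher with 1 lower (Gsn) and 7 higher. The endothelial list had 1 of 8 called higher, Pecam1, which was not called after median-of-ratios scaling (0.29), and its values overlapped after averaging the logs of its genes. In the smooth muscle and pericyte list 3 were called higher (Cnn1, Cspg4 and Pdgfrb) and 1 lower (Abcc9) of 8, Pdgfrb losing its call after median-of-ratios scaling (0.40). Called marker genes are named where few, after their values were seen.

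Each gene was set beside the geometric mean of the markers in the same library, with Tagln, listed at 0 in some libraries, left out. The cardiomyocyte markers themselves differed by -0.32 between ANG II and control on the log2 scale, so dividing by them raises every gene. Beside them all 8 genes parted the groups upwards, and so did 52.1% of all genes tested, Sync (0.40) included, for which no direction was given above. The differences were 1.75 for Vim, 1.64 for Lmnb1, 1.24 for Des, 1.01 for Lmna, 0.89 for Nes, 0.83 for Synm and 0.72 for Lmnb2.

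Relative to fibroblast markers, which rose by 1.25, the Vim groups overlapped with a difference of 0.17, and relative to macrophage markers, which rose by 1.37, they overlapped with 0.05. Lmnb1 likewise overlapped beside fibroblast (0.06) and macrophage markers (-0.06), and so did Des (-0.33 and -0.46). The fibroblast value is carried by Col1a1 (log2 fold change 3.25), Col1a2 (3.13) and Lum (1.76), whereas the list median was 0.74 and the other 6 genes lay between -0.50 and 0.76, under Vim, whose log2 fold change was 1.42. Lmna, Nes, Sync and Lmnb2 were lower relative to both lists, without overlap, as were 60.7% of all genes beside the fibroblast and 63.5% beside the macrophage markers. Synm was lower without overlap beside macrophage markers (-0.86) and overlapped beside fibroblast markers (-0.74). Against endothelial markers Vim was higher by 1.27, Lmnb1 by 1.16, Des by 0.76, Lmna by 0.53 and Nes by 0.41, each without overlap, against 16.5% of all genes. Beside smooth muscle and pericyte markers, which rose by 0.35, Vim (1.08), Lmnb1 (0.97), Des (0.57) and Lmna (0.34) were higher without overlap, against 10.7% of all genes, and Nes, Synm, Sync and Lmnb2 overlapped. These are descriptions without a test, and the part of cell composition in the changes of Vim, Lmnb1, Lmna and Des was not tested.

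**Figure D4:**
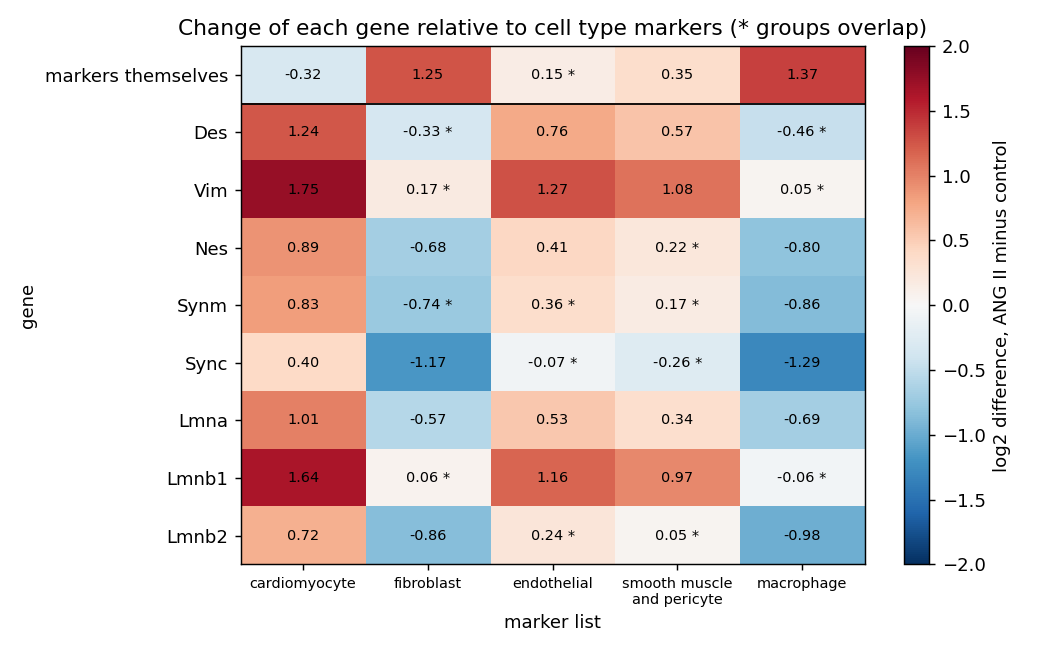
Difference of means, ANG II minus control, of the log2 level of each gene relative to the geometric mean of 5 marker lists in the same library, with the markers' own change in the top row. Stars mark overlapping groups. Vim and Lmnb1 overlap beside fibroblast and macrophage markers. Beside cardiomyocyte markers, which fell, all 8 genes are higher, as are 52.1% of all genes tested.

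Most markers of dividing cells were also higher in ANG II. Of 8 proliferation markers 7 were called higher, against 14.0% of all genes. Top2a, the DNA untangling enzyme of dividing cells, went from 3.83 to 19.5 FPKM, while Cenpa was not called (log2 fold change -0.05). The summed level of the 8 markers was 30.6 to 46.3 FPKM in control and 51.4 to 91.8 FPKM in ANG II. The part of dividing cells in the rise of Lmnb1 was not tested.

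Linkers and chaperones join the filaments to junctions and Z discs or keep them folded. Of 22 such genes 21 were tested and 1 was called higher and none lower, against 14.0% and 1.41% of all genes. This was Hspb7, a small heat shock protein of heart muscle. It rose from 493 ± 14.0 to 783 ± 42.2 FPKM (SD, n = 4 each), 0.66 as a log2 fold change with an SE of 0.0531 (Benjamini-Hochberg adjusted p = 2.53e-05, limma), and 0.44 after median-of-ratios scaling. The list median was 0.05, under the 0.15 of all genes. Cryab, the αB-crystallin chaperone of desmin, had a log2 fold change of 0.10 as deposited (limma adjusted p = 0.376) and -0.13 after median-of-ratios scaling. Plec, the plectin linker, had 0.13 (limma adjusted p = 0.256) and -0.090. Both were chosen after their values were seen, and for neither can a direction be given. After median-of-ratios scaling, under which 8.62% of all genes were called higher and 4.15% lower, none of the list was called higher and 5 were called lower: the desmosomal cadherins Dsg2 and Dsc2, the chaperone Hspb1, the Z disc protein Nebl and the adhesion adaptor Fblim1, at log2 fold changes of -0.51 to -0.57, against -0.28 to -0.35 as deposited, where none was called.

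Among 22 partners of the lamina and enzymes of lamin processing, 3 were called higher and none lower, a share near the 14.0% of all genes, and the list median of 0.16 was near that of all genes. Tmem43, an inner nuclear membrane protein also known from arrhythmogenic cardiomyopathy, rose from 24.0 ± 2.25 to 44.1 ± 5.38 FPKM (SD, n = 4 each), 0.85 as a log2 fold change with an SE of 0.0945 (Benjamini-Hochberg adjusted p = 1.50e-04, limma). Nrm (nurim, 0.61) and Tor1a (torsin A, 0.53) were also called. After median-of-ratios scaling Tmem43 was the 1 gene of the list still called, at 0.63. Zmpste24, the protease that trims prelamin A, had 0.090 as deposited (limma adjusted p = 0.229) and -0.13 after median-of-ratios scaling. The lamin-binding Emd (emerin) had 0.15 (limma adjusted p = 0.227) and -0.067. Both were chosen after their values were seen, and their sign depends on the scaling.

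Of 20 other intermediate filament genes 12 passed the filter, 4 were called higher and none lower, against 14.0% and 1.41% of all genes, with a list median of 0.38. Krt80 rose from 0.905 ± 0.232 to 2.70 ± 0.663 FPKM and Krt18 from 0.479 ± 0.234 to 1.94 ± 0.895 FPKM (SD, n = 4 each), each with a log2 fold change of 0.95 (Benjamini-Hochberg adjusted p = 0.00136 and 0.0123, limma). At levels this low, the 1 FPKM added before taking logs makes both fold changes smaller than the means show. Krt18 overlapped between the groups, with 0.690 FPKM in ANG II library 3 and 0.763 FPKM in the highest control, and held at most 64 fragments. Krt8, the usual partner of Krt18 in filaments, was at 0.170 and 0.206 FPKM and was not called (limma adjusted p = 0.84); it was chosen after its value was seen. Iffo1 and Iffo2, which carry an intermediate filament domain, had 0.68 and 0.51 and lost their calls after median-of-ratios scaling (0.48 and 0.35), which left 2 genes of the list called higher (Krt80 and Krt18) and 1 lower (Krt222), against 8.62% and 4.15% of all genes. The 8 genes that did not pass the filter included the neurofilament genes Nefl, Nefm and Nefh, each at no more than 8 fragments in any library.

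**Figure D5:**
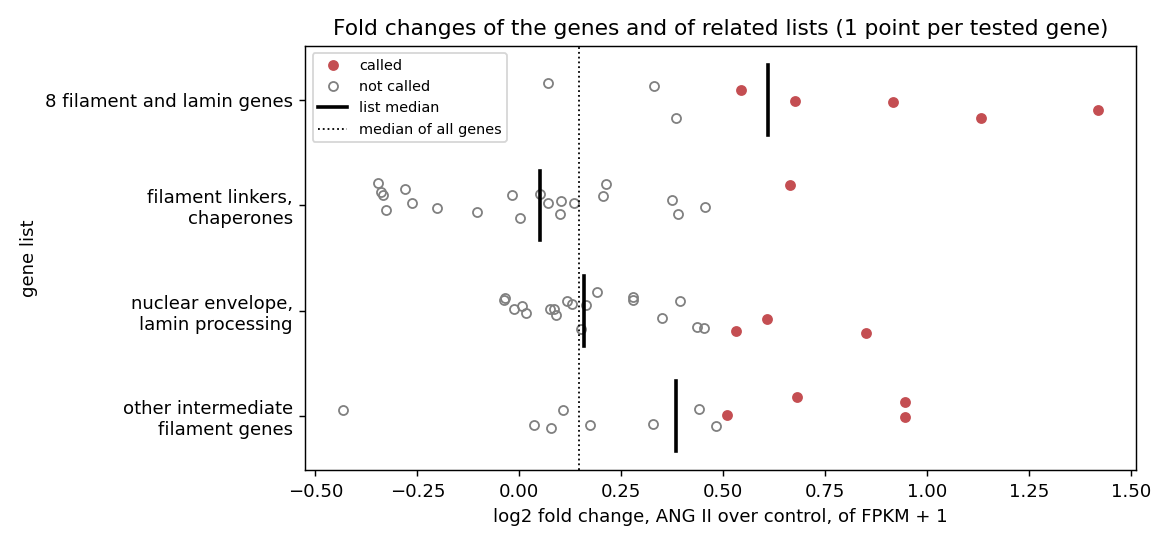
Log2 fold change, ANG II over control, of each tested gene (points, filled where called) in the 8 filament and lamin genes and in 3 related lists, with each list's median (bar) and the median of all genes (dotted line). The medians are 0.61, 0.05, 0.16 and 0.38 from top to bottom.

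Genes with the most similar pattern were sought among 11995 named genes that averaged 1 FPKM or more. The measure was the root mean square difference over the 8 libraries of log2(FPKM + 1), centred on the control mean. The added 1 shrinks the changes of low genes, so a low gene can stand near a member with a smaller fold change. Nearest to Des were Myh10 (0.0917), Synpo (0.0965) and Eya2 (0.0968). Vim was nearest to Tspan4 (0.0676), Ecm1 (0.111) and Olfml3 (0.114). For Nes they were Parp8 (0.0796), Gmfb (0.0904) and Alg5 (0.0944), and for Lmna Ttc8 (0.0510), Atp13a3 (0.0564) and Gpr161 (0.0572). Lmnb1 was nearest to Espl1 (0.0905), Prelid1 (0.0959) and Kif11 (0.0999), of which Espl1 (separase) and Kif11 (a mitotic kinesin) act in cell division. Both are low, with means of 0.849 and 2.87 FPKM for Espl1 and 0.483 and 2.32 FPKM for Kif11. Their fold rises were larger than that of Lmnb1 (4.05 to 10.2 FPKM), and what their nearness reflects was not tested. None of the 8 genes was among the 3 nearest of the 5 called members.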

How the data were processed

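RNA-seq of oligo(dT)-enriched RNA from 8 left ventricles was read as FPKM values, which the authors deposited in a single table, each library in a column of its own. The submitters' processing notes name Bowtie2, HISAT and RSEM. Versions, roles, genome build, annotation release and use of strand are not given in the sources used here. Positions came from GENCODE M21 (GRCm38), in which 55141 of 55679 gene IDs were found. Groups were taken from sample titles.

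The values multiplied by the mean transcript length came out as whole numbers of a library-specific step (within 0.05 for 99.2 to 99.3% of values under 60 fragments in genes of 1 exon and 97.6 to 98.1% in others), which gave the fragments per library. Counting errors given here are Poisson errors of these fragments and leave out duplication by PCR, since no molecular identifiers were used, and the differences between mice.

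The comparison used limma 3.58.1 in R 4.3.3 on log2(FPKM + 1), with a variance trend, all 8 libraries and no covariate, for genes averaging 0.1 FPKM or more. Fold changes on this scale understate the change of low genes. The study names limma and both thresholds but no log base. Base 2, the pseudocount and the filter were choices made here. Ratios and single values used exact two-sided permutation tests over 70 allocations (scipy 1.17.1). On simulated data for ANG II against control with 200 of 19076 genes changed, limma called 190 at 3-fold and none at 1.5-fold, with 4 and 0 false calls. The data differ from this setting, since 15.4% of genes tested were called and the simulated spread was fixed. The simulation therefore does not tell which changes of the members could be called. Nes, at 1.47-fold, was called.

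Members and lists were chosen with earlier results of these data known. Named were all members, up to 4 called genes with the highest and 2 with the lowest fold change of each related list, up to 2 genes of each marker list, and the 3 nearest patterns of each called member. Alternatives changed the pseudocount, filter, scaling, variance trend, fold change threshold and replicate block, or left out each library. 2 more, with voom on recovered fragments, were added after the data had been seen.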

Additional observations from a re-analysis of the deposited data

Results flagged for a closer look

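Control library 3 lay apart from the other control libraries for Vim, at 134 FPKM against 171 to 175 FPKM, a gap of 0.884 of the group's range, above Dixon's critical value for 4 samples. Chance flags about 1 in 20 groups, and 22 groups were checked. Without this library the log2 fold change of Vim was 1.33, and it stayed called.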

How the results depend on the processing

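Des, Vim and Lmnb1 stayed called and higher under every alternative run at the fold change threshold of 0.5, with log2 fold changes of 0.69 to 1.06, 1.19 to 1.52 and 0.85 to 1.31. Lmna was not called after median-of-ratios scaling with limma (0.45) or with voom (0.46). Nes was not called at 0.32 after median-of-ratios scaling, 0.32 after quantile normalization, 0.40 without mitochondrial and top 10 genes and 0.34 with voom and median-of-ratios scaling, and it ranged from 0.46 to 0.64 when 1 library was left out, not being called without control library 2 or 4. Synm was called with voom (0.51). Sync changed sign to -0.13, -0.22, -0.058 and -0.15 under median-of-ratios scaling, quantile normalization, removal of mitochondrial and top 10 genes and voom with median-of-ratios scaling, and lay between -0.037 and 0.12 when 1 library was left out, being negative without control library 1. The 8 genes held 3 calls after median-of-ratios scaling with limma or voom and 2 at an absolute log2 fold change above 1. Over all 19364 genes tested, 2474 were called after median-of-ratios scaling with limma, 795 above 1 and 6447 without a fold change threshold, against 2981. With voom and median-of-ratios scaling 3250 genes were called.

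Linkers and chaperones held 1 call, which was higher. They held 5 calls, all lower, after median-of-ratios scaling, 4 (1 higher, 3 lower) after quantile normalization, 6, all lower, with voom and median-of-ratios scaling, 0 above 1 and 6 (2 higher, 4 lower) without a fold change threshold, and 1 to 2 when a library was left out (2 without ANG II library 3). Nuclear envelope genes held 1 after median-of-ratios scaling, after quantile normalization, without mitochondrial and top 10 genes and with voom and median-of-ratios scaling, 0 above 1 and 6 without a threshold, against 3. Other intermediate filament genes held 3 after median-of-ratios scaling (2 higher, 1 lower), 0 above 1 and 7 without a threshold, against 4. The causes were not tested, apart from the fold change threshold, which sets those counts by construction.

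Replicate numbers did not pair the libraries, since same-numbered libraries had correlations of their deviations of -0.0433 to 0.0921. A block for the number gave 2968 calls and 5 calls among the 8 genes, and changed no call of a named member, although the limma adjusted p of Synm went from 0.0437 to 0.0828. For the ratios, sign-flips over 4 numbers cannot give a p below 0.125, and leaving out a library gave values only: 0.35 to 0.63 for Vim over Des, -0.31 to -0.14 for Lmna over the B-type lamins and 0.79 to 1.03 for Lmnb1 over Lmnb2. Counting error reached 10.2% for Lmnb1 and 7.96% for Sync in the library with the fewest fragments of the gene, above the smaller of the CVs of their groups (7.85% and 5.59%), whereas for Lmnb2 and Synm the CVs (18.5% and 12.0%) were above the counting error (8.70% and 7.79%).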

Other observations

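Within the ANG II group the libraries ranked alike for the B-type lamins: library 1 was highest, followed by 2, 3 and 4, both for Lmnb1 (12.4 to 8.04 FPKM) and for Lmnb2 (7.61 to 4.95 FPKM). Des did not share this order, being highest in library 2 and lowest in library 3.

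Prph, a neuronal intermediate filament gene chosen after its values were seen, was listed at 0 in 3 of the 4 control libraries and at 0.128 to 0.628 FPKM in ANG II, with at most 14 fragments, and was not called (log2 fold change 0.48, Benjamini-Hochberg adjusted p = 0.013, limma). Krt222, a keratin-related gene also chosen after its values were seen, went the other way, from 20.5 ± 1.01 to 15.0 ± 1.42 FPKM (SD, n = 4 each). Its log2 fold change was -0.43 as deposited, not called, and -0.65, called, after median-of-ratios scaling.

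Markers of further cell types and tissues moved as follows, where 14.0% of all genes were called higher and 1.41% lower. The study flushed the hearts with saline to remove blood, and the source of these changes was not tested. All 5 erythroid genes (the globin genes Hba-a1, Hba-a2, Hbb-bs and Hbb-bt, and Alas2) were called higher (summed level 96.8 to 487 FPKM in control and 581 to 2083 FPKM in ANG II), as were 4 of 5 activated fibroblast genes (Postn, Cthrc1, Fn1 and Col8a1), 4 of 5 neutrophil genes (S100a8, S100a9, Csf3r and Retnlg), 2 of 5 T cell genes (Cd2 and Trac), 2 of 4 genes of the atrial list (Sln and Nppa, Sln losing its call after median-of-ratios scaling with an adjusted p of 0.0507 by limma) and 2 of 3 tested skeletal muscle genes (Acta1 and Tnnt3). The other skeletal muscle genes did not share this: Ckm had a log2 fold change of -0.39, not called, and -0.62, called lower, after median-of-ratios scaling, while Myh1 held at most 3 fragments and Myh4 was listed at 0 in every library. The remaining activated fibroblast gene, Acta2, had a log2 fold change of -0.20 as deposited and -0.43 after median-of-ratios scaling. It was called under neither. These names were chosen after their values were seen. None of the 4 B cell, 5 glia and Schwann cell, 3 tested adipocyte and 4 mesothelial genes was called. The atrial light chain genes Myl4 and Myl7 were not called, with log2 fold changes of 2.23 and 2.38 (limma adjusted p = 0.0557 for each) and means of 15.7 and 12.0 FPKM in control against 63.5 and 47.6 FPKM in ANG II. Nppa is also known to be switched on in the strained ventricle, so it does not mark atrial tissue alone.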
